A study of Mus musculus with 6 samples.

Results

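Genes that carry and restrain NODAL signals were followed in mouse embryonic stem cells: the ligand genes Nodal and Gdf3, the coreceptor gene Tdgf1, the transcription factor gene Foxh1, the secreted antagonist genes Lefty1 and Lefty2, and the inhibitor genes Smad7, Skil and Pmepa1. They were picked by symbol from a list of NODAL pathway genes, and all 9 were among the 23999 gene symbols of the count table and among the 14458 genes that passed the filter on low counts. The cells were cultured stem cells of the early mouse embryo whose labels give a floxed element named -5 and an exogenous, V5-tagged copy of mouse Nanog, so both groups carried both. They received 4-hydroxytamoxifen (4OHT, n = 3) or ethanol vehicle (n = 3) for 6 days, and polyadenylated RNA was sequenced. The title of the series places the floxed element at an enhancer of Nanog. In floxed cells 4OHT commonly serves to activate a Cre recombinase joined to a mutated oestrogen receptor, but no label names the recombinase, its promoter or the number of clones. No 4OHT-treated cells without the floxed element were among the samples, so an effect of the ligand and an effect of the deletion cannot be told apart. No label says whether the 3 samples of a group came from separate cultures, so the p-values measure the spread between these samples, which may be technical.

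NODAL and GDF3 are secreted ligands of the TGF-beta superfamily. With a membrane-bound coreceptor such as TDGF1 (CRIPTO), NODAL binds activin receptors, whose kinases phosphorylate SMAD2 and SMAD3; these enter the nucleus with SMAD4 and, at many genes, act through the DNA-binding factor FOXH1. The pathway switches on its own ligand and its own brakes: Nodal, Lefty1, Lefty2, Smad7, Skil and Pmepa1 are known targets of SMAD2 and SMAD3 signalling in various cells. In the embryo it keeps the epiblast pluripotent and later patterns the mesendoderm and the left-right axis.

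The 4OHT libraries held 55194644, 515388 and 31307423 counts and the vehicle libraries 52250671, 20030423 and 26370388 counts. One read in 4OHT replicate 2, the shallow library, stood for 1.91 CPM (counts brought to a common library total with TMM factors), against 0.0183 to 0.0498 CPM in the other 5 libraries. In that library the 9 genes had between 14 reads (Foxh1 and Lefty2) and 355 reads (Tdgf1). The Nanog count fell to 181 ± 11.5 CPM in 4OHT cells, against 644 ± 14.5 CPM in vehicle cells (SD, n = 3 each). Reads of the exogenous Nanog copy may be part of these values. Among markers of the cells, 5 of 7 tested pluripotency genes did not pass the test (Sox2 was higher and Pou5f1 lower), where 22.4% of all tested genes passed. The summed level of the 7 was 4999 to 5331 CPM in 4OHT and 5277 to 5392 CPM in vehicle libraries.

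Reference sequence was at hand for the upstream regions of the ligand gene Nodal, which rose, and of Tdgf1, the gene of its coreceptor, which did not pass the test. The 250 bases before the RefSeq start of each are shown on the coding strand, 5′ to 3′, with a match to the core SMAD motif CAGAC in capitals.
Nodal, chr10:61417722-61417971 (GRCm38.p6, plus strand): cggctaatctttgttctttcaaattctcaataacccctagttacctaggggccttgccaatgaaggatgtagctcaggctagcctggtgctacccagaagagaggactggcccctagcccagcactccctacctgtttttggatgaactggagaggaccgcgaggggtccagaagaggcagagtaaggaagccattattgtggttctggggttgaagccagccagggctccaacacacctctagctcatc
Tdgf1, chr9:110946159-110946408 (GRCm38.p6, minus strand): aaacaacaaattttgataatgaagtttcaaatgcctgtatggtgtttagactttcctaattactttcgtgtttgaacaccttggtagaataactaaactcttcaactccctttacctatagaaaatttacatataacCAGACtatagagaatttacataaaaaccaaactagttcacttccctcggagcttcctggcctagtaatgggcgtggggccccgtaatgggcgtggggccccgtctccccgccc
CAGAC, searched on both strands, had no match in the Nodal window and 1 in the Tdgf1 window, whose first base lies 113 bases before the start. The FOXH1 motif AATNCACA, also searched on both strands, had no match in either window. Of 32851 RefSeq windows of this length, 42.2% held CAGAC and 3.18% held AATNCACA. The Nodal window has 3 CpG dinucleotides and 53.2% G and C, and the Tdgf1 window has 7 CpG dinucleotides and 42% G and C. Known FOXH1-bound enhancers of Nodal lie outside this window.

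The pathway genes moved in part and by small amounts. Of the 9 genes, 5 rose after 4OHT (Lefty1, Lefty2, Foxh1, Nodal and Pmepa1), 1 fell (Smad7) and 3 did not pass (Skil, Gdf3 and Tdgf1) in edgeR's quasi-likelihood test at a Benjamini-Hochberg adjusted p of 0.05 over all 14458 genes. Over all tested genes 22.4% passed, 11.9% higher and 10.5% lower in 4OHT. For 5 of the 9 genes the values of the groups did not overlap, as for 31.3% of all tested genes. The median log2 fold change of the 9 genes was 0.27, that of all tested genes -0.0026. The genes had been chosen with earlier results of these data known, so these counts describe the list and carry no test of their own. In bulk RNA, a change in the number of cells that express a gene and a change in RNA per cell cannot be told apart.

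**Figure D1:**
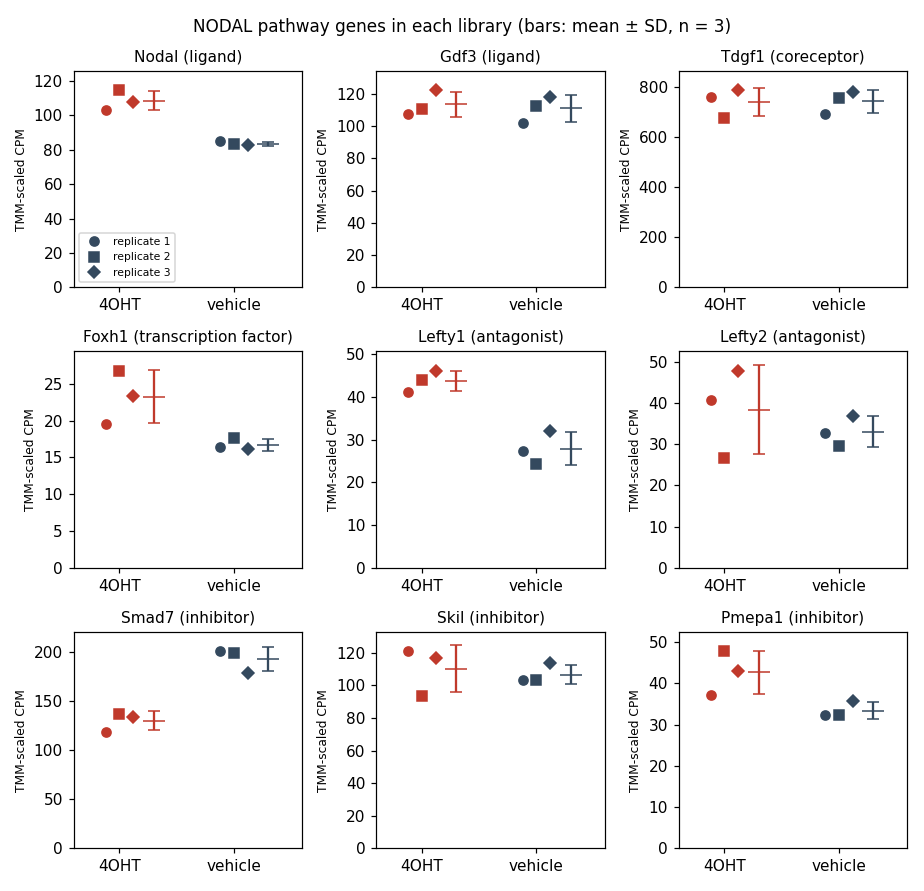
Level of each of the 9 genes in each library, in TMM-scaled CPM on axes that start at 0, with 4OHT left and vehicle right; symbols mark the replicate number and bars the mean ± SD (n = 3). The groups do not overlap for Nodal, Foxh1, Lefty1, Pmepa1 and Smad7 (31.3% of all tested genes did not overlap), and Smad7 is the only one of these with the 4OHT libraries below.

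Of the ligand genes, Nodal rose and Gdf3 did not pass. Nodal had 103, 115 and 108 CPM in the 4OHT libraries, against 84.9, 83.3 and 82.7 CPM in the vehicle libraries. All 3 4OHT libraries lay above all 3 vehicle libraries, and the vehicle libraries spread little. The difference was 1.27-fold (log2 fold change 0.34, SE 0.06, 95% interval 0.22 to 0.47, edgeR adjusted p = 0.000214). Gdf3, whose protein is a NODAL-like ligand and whose gene lies in the same cluster of stem cell genes as Nanog, had 108, 111 and 122 CPM in 4OHT and 102, 112 and 118 CPM in vehicle libraries. The groups overlap, and the interval of the log2 fold change, -0.10 to 0.19, holds changes of either sign. Replicate 3 was the highest library in both groups and replicate 1 the lowest.

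Tdgf1 and Foxh1 encode proteins that cells need to respond to the ligand, one at the membrane and the other in the nucleus. Tdgf1, by far the most abundant of the 9 genes, had 759, 678 and 786 CPM in 4OHT and 692, 755 and 780 CPM in vehicle libraries. The means differed by less than the spread between replicates (log2 fold change 0.02, 95% interval -0.12 to 0.15). Of the 50-base stretches of its longest transcript, 12.5% also occur in the pseudogene Tdgf1-ps1, so a part of its reads may be shared. Foxh1 had 19.6, 26.7 and 23.4 CPM in 4OHT, against 16.4, 17.7 and 16.1 CPM in vehicle libraries. The groups do not overlap, and Foxh1 rose with a log2 fold change of 0.37 (SE 0.09, edgeR adjusted p = 0.00585). Its highest value rests on 14 reads in the shallow library. DESeq2 with all libraries did not call it (adjusted p = 0.2), and DESeq2 without the shallow library did (adjusted p = 0.0134).

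The LEFTY proteins are secreted members of the TGF-beta superfamily that block NODAL and its coreceptors outside the cell, and both genes are on chromosome 1. Lefty1 had the largest rise of the 9 genes. It stood at 41.2, 43.9 and 46.0 CPM in 4OHT, against 27.3, 24.4 and 31.9 CPM in vehicle libraries. The lowest 4OHT library was above the highest vehicle library, and the difference was 1.56-fold (log2 fold change 0.64, SE 0.09, 95% interval 0.46 to 0.82, edgeR adjusted p = 1.45e-05). Of all tested genes, 91.6% had a smaller absolute log2 fold change. Lefty2 had 40.8, 26.7 and 47.8 CPM in 4OHT and 32.7, 29.5 and 37.0 CPM in vehicle libraries. Here the shallow 4OHT library, with 14 reads, was the lowest of all 6, while both deeper 4OHT libraries were the highest. Lefty2 rose in edgeR with all libraries (log2 fold change 0.39, SE 0.09, adjusted p = 0.00378) and without the shallow library (0.41, adjusted p = 0.00845). DESeq2 with all libraries (adjusted p = 0.205) and limma-voom with quantile normalization (adjusted p = 0.0539) did not call Lefty2, and DESeq2 without the shallow library did (adjusted p = 0.00109).

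Reads of the LEFTY genes can be confused with each other. Over 1107 coding bases each, taken from GENCODE transcripts, Lefty1 and Lefty2 are 91.9% identical, and the encoded proteins of 368 residues are 89.9% identical. Of the 50-base stretches of the longest transcript, 17.9% for Lefty1 and 11.6% for Lefty2 occur in the other gene. How the authors counted reads that match both is not given in the sources used here, so the separate values are uncertain to that extent. The ratio of Lefty1 to Lefty2 counts was 1.01, 1.64 and 0.963 in 4OHT, against 0.837, 0.828 and 0.863 in vehicle libraries. Each 4OHT ratio was above each vehicle ratio, with a difference of 0.47 on the log2 scale (exact two-sided permutation p = 0.1, the smallest that 3 against 3 allows). Without the shallow library the difference was 0.23.

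The intracellular brakes went different ways. SMAD7 blocks the type I receptors of the TGF-beta, activin and BMP branches, SKIL (SnoN) represses SMAD complexes on DNA, and PMEPA1 keeps SMAD2 and SMAD3 from the receptor. Smad7 had 119, 137 and 135 CPM in 4OHT, against 201, 199.7 and 179 CPM in vehicle libraries. The highest 4OHT library was well below the lowest vehicle library, and Smad7 fell to 66% of its vehicle level (log2 fold change -0.60, SE 0.07, 95% interval -0.74 to -0.45, edgeR adjusted p = 1.7e-06). Skil had 121, 93.6 and 117 CPM in 4OHT and 103, 103 and 114 CPM in vehicle libraries. These groups overlap through the shallow library, which gave the lowest value, and the log2 fold change of 0.13 had a 95% interval of -0.0073 to 0.27 (edgeR adjusted p = 0.173). Pmepa1 had 37.1, 47.7 and 43.0 CPM in 4OHT, against 32.2, 32.3 and 35.7 CPM in vehicle libraries. The groups are separated by a small gap, and Pmepa1 rose with a log2 fold change of 0.27 (SE 0.08, edgeR adjusted p = 0.0166). The Pmepa1 call was close to the limit: the edgeR adjusted p was 0.0939 without 4OHT replicate 3, 0.0797 without vehicle replicate 1 and 0.0828 without vehicle replicate 2. It was 0.252 in DESeq2 and 0.0751 in limma-voom with quantile normalization.

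Ratios of counts set members side by side. The ratio of Smad7 to Skil counts was 0.987, 1.47 and 1.15 in 4OHT, against 1.95, 1.93 and 1.57 in vehicle libraries. All 4OHT ratios were below all vehicle ratios, by 0.61 on the log2 scale (exact two-sided permutation p = 0.1, the smallest possible). The ratio of Lefty1 to Nodal counts was 0.399, 0.383 and 0.426 in 4OHT and 0.322, 0.293 and 0.386 in vehicle libraries. These ratios overlap, with a mean difference of 0.28 on the log2 scale (exact two-sided permutation p = 0.2). Within same-numbered samples the ratio was higher in 4OHT in 3 of 3 pairs (exact sign-flip permutation p = 0.25, the smallest that 3 pairs allow), so neither test could settle whether the antagonist gene rose more than the ligand gene.

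Levels of different genes were compared per kilobase of exon (GENCODE vM21 union of exons). In 4OHT cells the order was Tdgf1 (283 ± 21.5 CPM per kilobase), Nodal (51.8 ± 2.7), Gdf3 (46.8 ± 3.16), Smad7 (28.8 ± 2.17), Lefty1 (24.9 ± 1.38), Foxh1 (17.0 ± 2.63), Lefty2 (14.7 ± 4.11), Skil (11.4 ± 1.51) and Pmepa1 (8.68 ± 1.08; SD, n = 3 each). In vehicle cells it was Tdgf1 (283 ± 17.2), Gdf3 (45.8 ± 3.37), Smad7 (42.7 ± 2.74), Nodal (39.9 ± 0.542), Lefty1 (15.9 ± 2.15), Lefty2 (12.7 ± 1.44), Foxh1 (12.3 ± 0.614), Skil (11 ± 0.625) and Pmepa1 (6.8 ± 0.411). Tdgf1 thus stood well above every other gene in both groups. Of neighbours in these orders, the libraries overlap between Nodal and Gdf3, Foxh1 and Lefty2, Lefty2 and Skil, and Skil and Pmepa1 in 4OHT cells. They overlap between Gdf3 and Smad7, Smad7 and Nodal, Lefty1 and Lefty2, and Lefty2 and Foxh1 in vehicle cells. Smad7 and Nodal, which overlapped in vehicle cells, did not overlap in 4OHT cells, where the lowest Nodal library had 49.3 and the highest Smad7 library 30.4 CPM per kilobase.

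**Figure D2:**
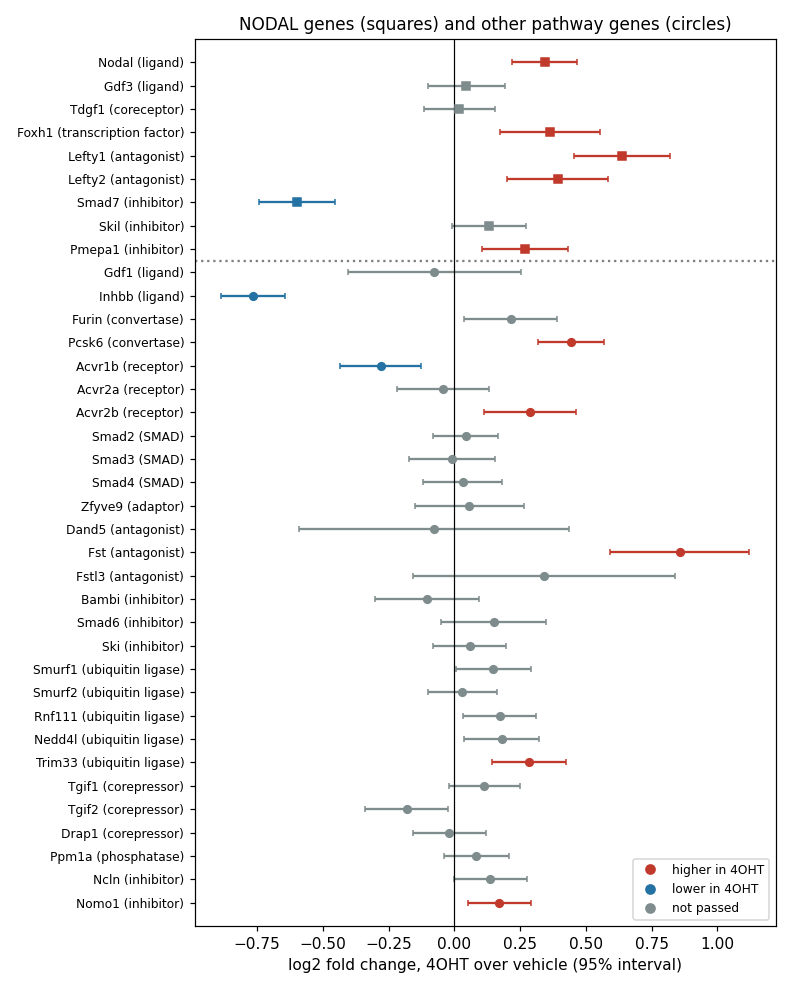
Log2 fold change of 4OHT over vehicle with its 95% interval for the 9 genes (squares, above the dotted line) and 28 other tested pathway genes (circles); red marks genes called higher, blue genes called lower, and grey genes that did not pass. Most intervals of receptors, SMADs and intracellular regulators span or nearly reach 0, while Inhbb and Smad7 stand far to the left and Fst and Lefty1 to the right.

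Of 32 other genes of NODAL and activin signalling, 28 were tested: 5 rose (Fst, Pcsk6, Acvr2b, Trim33 and Nomo1), 2 fell (Inhbb and Acvr1b) and 21 did not pass. That is 7 of 28, close to the 22.4% of all tested genes, with a median log2 fold change of 0.07. Inhba, Acvr1c, Cfc1 and Cer1 did not pass the filter on low counts, with at most 19 reads in any library.

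Among the ligands of this wider group, Inhbb, which encodes the beta B subunit of activin B, changed most clearly. It had 159, 164 and 161 CPM in 4OHT, against 278, 272 and 267 CPM in vehicle libraries. The libraries of each group lay close together, and Inhbb fell to 58.8% of its vehicle level (log2 fold change -0.77, SE 0.06, edgeR adjusted p = 5.28e-09). Pcsk6, whose protein PACE4 is a protease that cleaves the NODAL precursor, had 95, 85.9 and 93.1 CPM in 4OHT, against 69.8, 69.6 and 66.7 CPM in vehicle libraries. It rose with a log2 fold change of 0.45 (SE 0.06, edgeR adjusted p = 1.25e-05). Furin, the gene of the other protease of this kind, did not pass (log2 fold change 0.21, 95% interval 0.04 to 0.39, edgeR adjusted p = 0.0763). Fst encodes follistatin, which binds and neutralizes activins. It had 8.0, 11.5 and 7.64 CPM in 4OHT, against 4.33, 5.08 and 3.81 CPM in vehicle libraries, and rose 1.81-fold (log2 fold change 0.86, SE 0.13, edgeR adjusted p = 3.85e-05).

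The receptor and SMAD genes changed little. Acvr1b, the type I receptor gene ALK4, had 30.7, 22.9 and 30.2 CPM in 4OHT, against 37.4, 38.2 and 34.6 CPM in vehicle libraries. All 4OHT values lay below, and Acvr1b fell (log2 fold change -0.28, SE 0.07, edgeR adjusted p = 0.00791), a call that DESeq2 with all libraries did not make (adjusted p = 0.216). Acvr2b, a type II receptor gene, rose (log2 fold change 0.29, SE 0.08, edgeR adjusted p = 0.0171). This call was lost without vehicle replicate 2 (edgeR adjusted p = 0.126), without vehicle replicate 3 (0.0716), in DESeq2 (0.382) and in limma-voom (0.0529). Smad2, Smad3 and Smad4, which encode the signal transducers, did not pass, with log2 fold changes of 0.04, -0.0097 and 0.03. Their 95% intervals were -0.08 to 0.17, -0.17 to 0.15 and -0.12 to 0.18, so changes of the size of that of Smad7 lie outside all 3. Trim33, a ubiquitin ligase that acts on SMAD4, rose with a log2 fold change of 0.28 (edgeR adjusted p = 0.00426, and 0.0513 in DESeq2). Nomo1, whose product belongs to a complex that restrains NODAL signalling in zebrafish, rose slightly (log2 fold change 0.17, edgeR adjusted p = 0.0364). The Nomo1 call was lost when any 1 vehicle library was left out (edgeR adjusted p of 0.119, 0.138 and 0.146), without 4OHT replicate 2 (0.0538), with no filter (0.0531), in DESeq2 (0.184) and in limma-voom (0.0676).

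**Figure D3:**
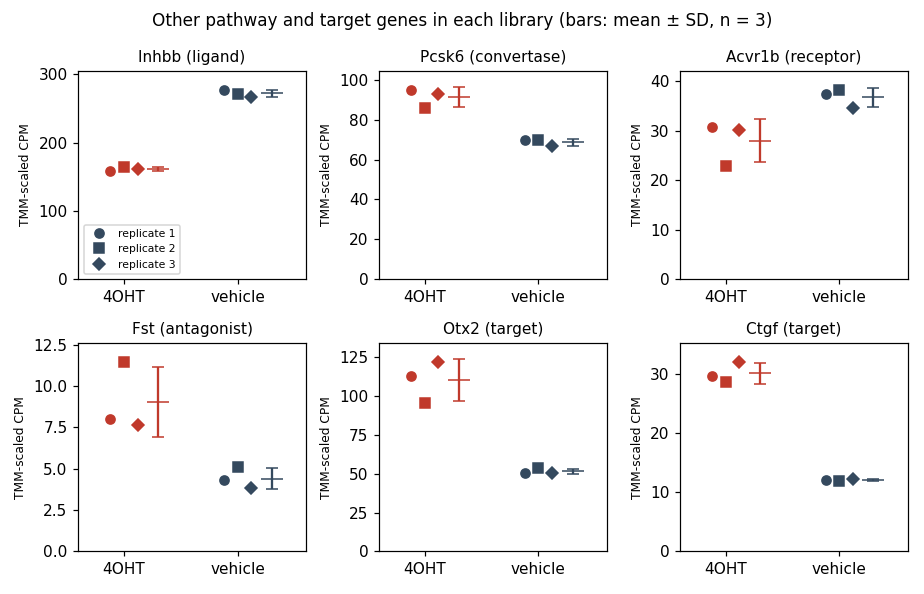
Level of 6 further genes in each library, in TMM-scaled CPM on axes that start at 0, with 4OHT left and vehicle right; bars show mean ± SD (n = 3). Inhbb and Acvr1b are lower and Pcsk6, Fst, Otx2 and Ctgf higher in all 3 4OHT libraries than in any vehicle library. All 6 were among the called genes, and the groups did not overlap for 31.3% of all tested genes.

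In a further list of known targets of NODAL or TGF-beta signalling in other settings, the tested genes went up or did not pass. The list leaves out the targets among the 9 genes, of which Smad7 fell and Skil did not pass. Nodal, Lefty1, Lefty2 and Pmepa1 rose. Of 12 listed, 9 were tested, 4 rose, none fell and 5 did not pass. Over all tested genes 11.9% were higher and 10.5% lower. The median log2 fold change of the 9 was 0.36, which is the value of Wnt3, a gene that did not pass (95% interval -0.31 to 1.02). Wnt3 had 31, 0 and 14 reads in 4OHT and 18, 9 and 13 reads in vehicle libraries, so this median describes no typical rise. At an unadjusted p under 0.05 no target of this list was lower in edgeR, DESeq2 or limma-voom. Otx2, a homeobox gene of the epiblast and anterior brain, had 113, 95.5 and 122 CPM in 4OHT, against 50.6, 53.6 and 50.4 CPM in vehicle libraries (log2 fold change 1.17, SE 0.07, edgeR adjusted p = 9.98e-11). Ctgf, which encodes a matrix-associated protein induced by TGF-beta and by YAP, had 29.7, 28.6 and 32.1 CPM in 4OHT, against 12.1, 12 and 12.3 CPM in vehicle libraries. It rose 2.53-fold (log2 fold change 1.34, SE 0.08, edgeR adjusted p = 1.89e-10). Otx2 and Ctgf were also the only targets of this list that DESeq2 and limma-voom called with all libraries.

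The other targets of this list were scarce. Gsc, a homeobox gene of the organizer, had 117, 4 and 45 reads in 4OHT and 55, 16 and 18 reads in vehicle libraries. Foxa2, a factor of the endoderm, had 31, 2 and 21 reads in 4OHT and 10, 3 and 6 reads in vehicle libraries. Both rose in edgeR (log2 fold changes 1.12 and 1.71, adjusted p = 0.00314 and 0.00272). The primitive streak genes Eomes and Mixl1 did not pass, with log2 fold changes of -0.13 and 0.19. T had at most 13 reads in any library, and it was not tested.

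The receptors and ligands of the neighbouring TGF-beta and BMP branches, which share SMAD4 and SMAD7 with NODAL, gave 2 rises and 2 falls among 13 tested genes of 15, with a median log2 fold change of 0.11, where 22.4% of all tested genes passed. Tgfb2 rose and Tgfb1 fell (log2 fold changes 1.12 and -0.40, edgeR adjusted p = 7.86e-05 and 0.00404). These ligand genes were low, at 2.85 ± 0.859 CPM in 4OHT and 1.45 ± 0.205 CPM in vehicle cells for Tgfb2, and at 9.34 ± 0.369 CPM in 4OHT and 12.2 ± 0.39 CPM in vehicle cells for Tgfb1 (SD, n = 3 each). The receptor gene Bmpr1b rose (0.67, adjusted p = 0.0128; lost without vehicle replicate 1, adjusted p = 0.137, and in limma-voom, 0.0995) and the receptor gene Acvrl1 fell (-0.83, adjusted p = 0.00108). DESeq2 with all libraries called none of the 13 (1 higher and 0 lower at an unadjusted p under 0.05), and without the shallow library it called 1 rise and 2 falls.

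Markers of other cells moved with the treatment. Of 12 markers of the primitive and visceral endoderm, a lineage that also uses NODAL signalling, 10 were tested, 9 rose and none fell (11.9% and 10.5% over all tested genes), and their summed level was 250.1 to 305 CPM in 4OHT and 149.7 to 164 CPM in vehicle libraries. Lama1 and Col4a1, both higher, made up most of these sums. Lama1 was at 135 CPM in 4OHT and 94.3 CPM in vehicle cells, and Col4a1 at 84.5 and 52.4 CPM. Of the 12 markers, the 4 with the smallest adjusted p were Cubn, Gata6, Dab2 and Pdgfra (log2 fold changes 5.24, 4.05, 2.38 and 3.17). Ttr had no read in any library and Afp at most 2. The fibroblast list summed to 8.09 to 9.55 CPM in 4OHT and 17.4 to 18.5 CPM in vehicle libraries. Thy1, which was lower, made up most of these sums, at 6.67 CPM in 4OHT and 15.9 CPM in vehicle cells. The other tested genes, Col1a1 and Col1a2, did not pass (log2 fold changes 0.10 and 0.90), and Postn had no read in any library. The trophoblast list summed to 14.6 to 15.3 CPM in 4OHT and 22.2 to 23.1 CPM in vehicle libraries, with Krt8 and Krt18 lower, and Cdx2 at most 11 and Elf5 at most 1 read. Hand1 was called higher (edgeR adjusted p = 0.0317), but not without 4OHT replicate 2 (0.0504), 4OHT replicate 3 (0.265) or vehicle replicate 1 (0.18), nor in limma-voom (0.295) or in DESeq2 without the shallow library (0.108), where Hand1 had 0 reads. Primed epiblast markers summed to 390 to 414 CPM in 4OHT and 268 to 277 CPM in vehicle libraries. Of 3 tested, Otx2 and Dnmt3b were higher (11.9% over all tested genes) and Pou3f1 did not pass (log2 fold change -0.12). Fgf5 had at most 13 reads in any library. The primitive streak list summed to 11.2 to 19.1 CPM in 4OHT, highest in the shallow library, and 11.8 to 12.2 CPM in vehicle libraries. Gsc was higher and Evx1 lower, Evx1 with 11, 0 and 6 reads in 4OHT and 37, 12 and 25 in vehicle libraries. DESeq2 with all libraries called neither, nor did limma-voom (adjusted p = 0.0660 for Gsc and 0.0714 for Evx1). The part of these cells in the changes of Nodal, the Lefty genes, Foxh1, Smad7, Pmepa1 and the wider lists was not tested.

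By the root mean square difference of centred log2 CPM over the 6 libraries, the genes most like Nodal among 4368 others with a mean of at least 50 CPM were Bend3, Notch2 and Hmces. Their differences from Nodal were 0.0247, 0.0257 and 0.0283 on the log2 scale. This measure includes the difference between the groups, and their log2 fold changes were 0.35, 0.36 and 0.32, against 0.34 for Nodal. Shared regulation was not tested.

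**Figure D4:**
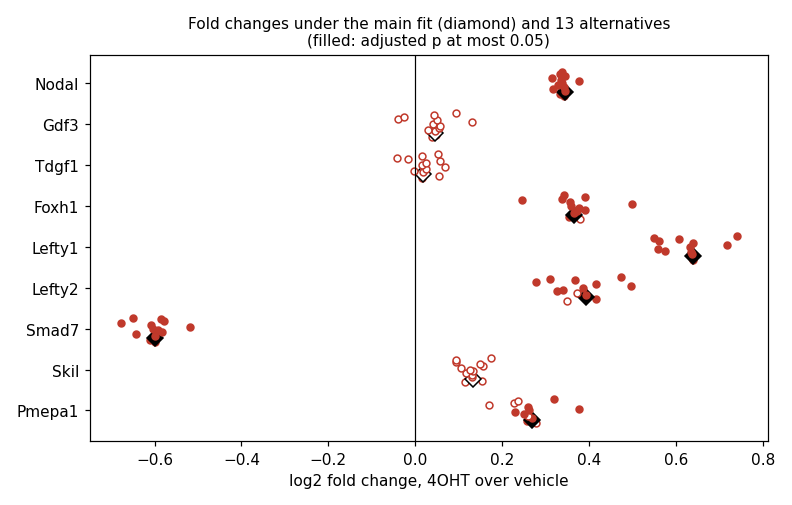
Log2 fold change of each of the 9 genes in the reported fit (diamond) and under 13 other settings (circles), filled where the adjusted p was at most 0.05. Nodal, Lefty1 and Smad7 passed under all 14 settings, Gdf3, Tdgf1 and Skil under none, and Foxh1, Lefty2 and Pmepa1 under 13, 12 and 9.

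The fold changes of Nodal ran from 0.32 to 0.38 over these 14 settings, those of Lefty1 from 0.55 to 0.74 and those of Smad7 from -0.68 to -0.52. Leaving out the shallow 4OHT library changed no call among the 9 genes in edgeR, where 5 again rose and 1 fell.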

How the data were processed

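The authors deposited 1 table of read counts per gene symbol (23999 symbols, 6 samples). Per the submitters' processing notes, the tools were STAR and DESeq and the build mm9, with no version or role stated; the sources used here do not give the counter, annotation, strand setting or read length. The values are whole numbers with unequal library totals (515388 to 55194644), so they were treated as raw counts. Groups and replicate numbers came from the labels.

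All genes were fitted with edgeR 4.0.16 in R 4.3.3: filterByExpr (minimum count 10), TMM scaling (factors 0.979 to 1.017), a quasi-likelihood fit with treatment as its 1 covariate, and Benjamini-Hochberg adjustment over 14458 genes at 0.05. Fold changes are 4OHT over vehicle (prior count 0.125); SE and 95% intervals come from the same model. Intervals cover these samples only. Ratios of counts were tested by exact permutation in SciPy 1.17.1. The procedure was also run on counts simulated with the spread fitted to these data. Samples were drawn independently there, so that run could not check a pairing of same-numbered samples. Its outcome is not given here. Alternatives were RLE size factors, DESeq2 1.42.0, no filter, a replicate block, quantile normalization in limma-voom (limma 3.58.1) and leaving out each library; 2 more, chosen after seeing the data, left the shallow library out of DESeq2 and replicate 2 out of the block.

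Same-numbered samples deviated together: over 3632 genes with log2 CPM above 6, each sample's departure from its group mean had correlations of 0.57, 0.15 and 0.39 between same numbers 1 to 3, all over 0.1, so the numbers may pair the samples, although no label says so and 4OHT replicate 3 with vehicle replicate 2 gave 0.45. No 2 libraries agreed within sampling noise.

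Transcripts and gene models were GENCODE vM21 and upstream windows RefSeq, on GRCm38; 2 of the 9 genes matched the upstream table. That build differs from mm9, and no coordinate of the counts is given. Genes and lists were chosen with earlier results of these data known; 2 further pathway genes are not reported here. Named were the 9 genes, Nanog, 6 fixed receptor, SMAD and protease genes, called genes of each list (up to 8 with the smallest adjusted p, or 4 for markers) and the 3 genes most like Nodal. Others (Eomes, Mixl1, T, Wnt3, Lama1, Col4a1 and genes below the filter) were named after their values were seen.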

Additional observations from a re-analysis of the deposited data

How the results depend on the processing

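With the replicate number as a block no call among the 9 genes changed (5 higher and 1 lower), with log2 fold changes of 0.34 for Nodal, 0.58 for Lefty1 and -0.58 for Smad7; over all genes 2115 were higher and 1958 lower, and in the wider pathway list 7 and 3. The block added Ncln, Rnf111, Tgfbr3 and the fall of Tgif2, and the mean ratio differences are the same under it. RLE factors changed no call in these lists. Over all genes 568 were higher and 409 lower in DESeq2 and 1120 and 968 in limma-voom, against 1719 and 1514; of the 9 genes 2 and 3 were higher there. DESeq2 gave log2 fold changes of 0.38, 0.35 and 0.28 for Foxh1, Lefty2 and Pmepa1 without passing, and limma-voom 0.37 and 0.26 for Lefty2 and Pmepa1. In the wider pathway list 2 were higher and 1 lower in DESeq2 and 3 higher in limma-voom, among targets 2 were higher in both, and in the TGF-beta and BMP list 0 higher and 0 lower in DESeq2 and 1 higher in limma-voom, as in DESeq2 without the shallow library. The causes were not tested. Leaving out 1 library at a time gave 4 to 5 rises among the 9 genes, 3 to 9 in the wider pathway list (9 without 4OHT replicate 1, 3 without vehicle replicate 2 or 3) and 1 to 3 in the TGF-beta and BMP list, and log2 fold changes of 0.17 to 0.38 for Pmepa1, -0.039 to 0.13 for Gdf3 and -0.041 to 0.058 for Tdgf1, which limma-voom put at -0.0025. Gdf3 was below 0 without 4OHT replicate 3 (-0.039) and without vehicle replicate 1 (-0.025), Tdgf1 without the same libraries (-0.016 and -0.041). Depth limits the low genes: 14 reads in the shallow library leave Foxh1 and Lefty2 there between 14.6 and 44.8 CPM (95% Poisson interval, counting error only).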
